A study of Mus musculus with 12 samples.

Results

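Imprinted genes are expressed mainly or only from the copy inherited from 1 parent, and many of them act on growth before and after birth. 9 of them, H19, Meg3, Rian, Dlk1, Peg3, Mest, Plagl1, Ndn and Grb10, were followed in cultured aortic smooth muscle cells. They were chosen by name, as the rows of the expression table whose symbol is 1 of these 9, out of 25745 genes. The cells were primary smooth muscle cells of the mouse aorta, which contract to set the tone of the vessel, from wild-type C57BL/6J mice aged 5 to 6 weeks. They were grown from thoracic artery pieces stripped of adventitia and endothelium and used between passages 5 and 8. RNA was sequenced in 12 libraries, 3 in each of 4 groups: basal medium (control), a calcification medium that held 3.0 mM sodium phosphate and was applied for 7 days (calcification), and that medium after an empty lentiviral vector (vector) or one for αKlotho (Klotho). Whether the first 2 groups saw any virus is not in the labels. Nor do they tie the 3 libraries of a group to separate mice or cultures, so the spread behind each p-value may be a technical one.

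The mouse Klotho gene itself, Kl, had 1 fragment in Klotho replicate 3 and 0 in the other 11 libraries, so the last group is the libraries labelled Klotho throughout. The values are FPKM, fragments scaled by gene length and library size. Each library held between 16649000 and 20008000 fragments by recovery from the values. Control replicate 2 had 14969 genes above 0, and the other libraries had 17343 to 19361. The RNA of smooth muscle genes differed with the replicate number. The summed level of 10 of them was 167 to 298 FPKM in the libraries numbered 1. It was 725 to 958 FPKM in those numbered 2 and 986 to 1379 FPKM in those numbered 3. Most of that sum was Acta2, the gene of smooth muscle actin, at a mean of 588 FPKM over the 12 libraries.

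Most imprinted genes sit in clusters, where a control region that carries DNA methylation on the copy from 1 parent sets which copy of each neighbour is active. H19, Meg3 and Rian are long noncoding RNAs made from the maternal copy. Dlk1, Peg3, Mest, Plagl1 and Ndn are protein genes active on the paternal copy, and Grb10 is active on the maternal copy in most mouse tissues and on the paternal copy in neurons. Several of the noncoding RNAs are also the source of microRNAs. RNA levels from these libraries do not tell the 2 parental copies apart.

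The microRNAs made from these transcripts are shown first, since they are part of what the hosts produce. 4 hosts, H19, Meg3, Rian and Mest, held 13 mature microRNAs in the RefSeq table for GRCm38.p6, with 13 different seeds, so no 2 of them shared a seed. The mature microRNAs were not measured in these libraries, and the host values below are those of the long transcripts. Examples are given 5′ to 3′ with the seed, bases 2 to 8, in capitals, first the pair from H19, then 1 from Mest, 1 from Meg3 and 2 from Rian.
miR-675-5p: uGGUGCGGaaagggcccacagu
miR-675-3p: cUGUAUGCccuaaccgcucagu
miR-335-5p: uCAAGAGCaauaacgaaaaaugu
miR-770-3p: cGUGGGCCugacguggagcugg
miR-370-3p: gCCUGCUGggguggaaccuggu
miR-341-3p: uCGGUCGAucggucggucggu

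Imprint marks are written on CpG dinucleotides, a C followed by a G, so the start sites of the 3 most abundant members are shown with each CpG in capitals. Each sequence is the 250 bases before the transcription start in RefSeq on GRCm38.p6, printed 5′ to 3′ on the gene's strand. They lie at chr12:109603695-109603944 on the plus strand for Rian, chr7:62348027-62348276 on the plus strand for Ndn and chr11:12037421-12037670 on the minus strand for the first listed start of Grb10. The gene positions given further below are those of the expression table and cannot be compared with these.
Rian: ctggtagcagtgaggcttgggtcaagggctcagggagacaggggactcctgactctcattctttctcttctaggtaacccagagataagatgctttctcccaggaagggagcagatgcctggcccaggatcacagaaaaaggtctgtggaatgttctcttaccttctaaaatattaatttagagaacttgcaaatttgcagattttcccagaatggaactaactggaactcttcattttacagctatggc
Ndn: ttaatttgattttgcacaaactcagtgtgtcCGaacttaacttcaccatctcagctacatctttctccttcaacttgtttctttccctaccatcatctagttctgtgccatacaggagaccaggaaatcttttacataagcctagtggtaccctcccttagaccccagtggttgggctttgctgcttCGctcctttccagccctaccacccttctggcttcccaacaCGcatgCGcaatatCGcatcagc
Grb10: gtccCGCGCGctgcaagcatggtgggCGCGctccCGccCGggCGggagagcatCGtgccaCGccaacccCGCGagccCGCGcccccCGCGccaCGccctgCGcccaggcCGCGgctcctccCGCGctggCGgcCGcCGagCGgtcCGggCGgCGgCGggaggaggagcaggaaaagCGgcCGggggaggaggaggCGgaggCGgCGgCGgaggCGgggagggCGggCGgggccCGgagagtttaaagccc
Rian had 0 CpGs in this window and Ndn had 5, against a median of 6 over the first starts of 27025 genes. The first listed start of Grb10 had 40, more than 98.7% of those promoters, and 81.2% of its bases were G or C. The second listed start of Grb10, not printed, had 8, more than 56.6%. The values per gene do not tell the starts apart. A table entry was found for 8 of the 9 members, and H19 had none. The letters GGGGCCCC were searched on both strands, a palindrome that the Plagl1 protein can bind. Peg3 was the only one of the 8 with a match, and 0.881% of all promoters held one. A match is a description of the window and no methylation was measured.

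The 9 genes spanned a wide range of levels, with Ndn and Grb10 far above the rest. Mean FPKM over the 12 libraries was 48.9 for Ndn, higher than 95.8% of the genes in the table, and 25.1 for Grb10, higher than 92.0%. Rian followed at 2.43 FPKM and Meg3 at 1.15 FPKM. Peg3 averaged 0.450 FPKM, H19 0.365, Mest 0.318, Dlk1 0.303 and Plagl1 0.148. These 5 lie below the mean of 1 FPKM required for the main test, so 4 of the 9 members were tested.

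The order from Ndn to Meg3 held within libraries, while the order among the low genes did not. Ndn exceeded Grb10 in 12 of 12 libraries, Grb10 exceeded Rian in 12 of 12 with ranges that did not overlap, and Rian exceeded Meg3 in 12 of 12. Meg3 exceeded Peg3 in 11 of 12. Peg3 was above H19 in 7 of 12 libraries, H19 above Mest in 5 of 12 and Mest above Dlk1 in 6 of 12, so these neighbours did not differ beyond their spread. Dlk1 exceeded Plagl1 in 10 of 12.

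Other imprinted genes spanned a wide range of levels too. Of 47 other imprinted genes in the table, from lists of cluster neighbours and of genes elsewhere, 22 averaged at least 1 FPKM, or 46.8%, against 41.8% of all genes, and 12 averaged under 0.1 FPKM. Igf2, the fetal growth factor that shares its cluster with H19, averaged 0.0739 FPKM and was at 0 in 2 libraries. In the cluster of Meg3, Rian and Dlk1, the noncoding RNA Mirg averaged 0.250 FPKM, the retrotransposon-derived gene Rtl1 0.136 and the thyroid hormone deiodinase gene Dio3 0.382.

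**Figure D1:**
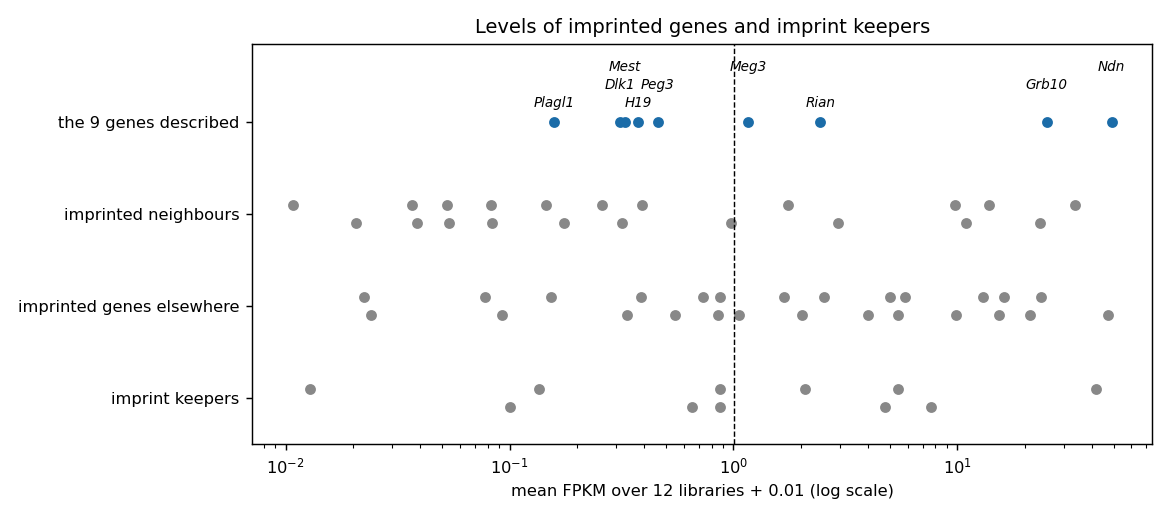
Mean FPKM over the 12 libraries plus 0.01, on a log axis, for the 9 genes described and for 3 fixed lists, with 1 point per gene. The dashed line marks the mean of 1 FPKM required for the main test. Ndn (48.9) and Grb10 (25.1) lie at the right, Rian (2.43) and Meg3 (1.15) just past the line, and the other 5 to its left.

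H19 is a maternally expressed noncoding RNA that is abundant before birth and silenced in most tissues after it, and it is known to reappear in injured rodent arteries. It lies on chromosome 7, minus strand, at 142129266 to 142131880 in the table (ENSMUSG00000000031), where the build is not stated. Its control values were 0.143, 0 and 0.284 FPKM, from 6, 0 and 12 fragments. In calcification medium they were 0.171, 0.318 and 0.914 FPKM, from 8, 13 and 39 fragments. The highest value was that of calcification replicate 3, and the groups overlapped. Vector libraries held 0.374, 0.537 and 0.622 FPKM and the libraries labelled Klotho 0.185, 0.266 and 0.569 FPKM. Each vector library lay above the library labelled Klotho that carries its number, and the 2 groups overlapped. The libraries of these 2 groups were not taken as paired, and the share of all genes with that direction was not counted. A count of 0 in control replicate 2 allows up to 0.0704 FPKM, the worth of 3 fragments, counting error only.

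Meg3 is a maternally expressed noncoding RNA of the Dlk1-Dio3 cluster with growth-restraining activity in cultured cells. It lies on chromosome 12, plus strand, at 109506884 to 109538160 (ENSMUSG00000021268). It had the least regular values of the members tested. Control libraries held 0.488, 1.96 and 0.960 FPKM, calcification libraries 0.909, 3.04 and 0.539, vector libraries 0.369, 1.66 and 2.27, and libraries labelled Klotho 0.787, 0.521 and 0.296. The high libraries were replicate 2 of the control and calcification groups and replicates 2 and 3 of the vector group, and all 4 groups overlapped. The Klotho mean of 0.535 ± 0.246 FPKM (SD, n = 3) was the lowest, against 1.43 ± 0.971 in the vector group.

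Rian, the next noncoding RNA in that cluster and the host of small nucleolar RNAs and microRNAs, lies on chromosome 12, plus strand, at 109570242 to 109628150 (ENSMUSG00000097451). Its control values were 1.26, 2.86 and 2.12 FPKM and its calcification values 1.90, 3.51 and 2.14 FPKM. Vector libraries held 1.23, 3.07 and 2.88 FPKM and libraries labelled Klotho 2.02, 3.51 and 2.71 FPKM. In every group replicate 1 was lowest and replicate 2 highest, and the groups overlapped. Group means ran from 2.08 ± 0.804 FPKM in control to 2.75 ± 0.745 FPKM in the libraries labelled Klotho (SD, n = 3).

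Dlk1 encodes a transmembrane protein of the Notch ligand family that restrains fat cell differentiation, and it is the paternally expressed gene at the edge of the same cluster. It lies on chromosome 12, plus strand, at 109418749 to 109429262 (ENSMUSG00000040856). Control libraries held 0.103, 0.745 and 0.227 FPKM, from 10, 73 and 22 fragments, and calcification libraries 0.0557, 0.340 and 0.224. Vector libraries held 0.152, 0.629 and 0.110 FPKM and libraries labelled Klotho 0.0903, 0.665 and 0.291. Replicate 2 was the highest library of every group, and the group means of 0.207 to 0.358 FPKM lay within the spread.

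Peg3 and Plagl1 encode zinc-finger transcription factors, and Plagl1 is known in mice as a regulator of a network of imprinted genes. Peg3 lies on chromosome 7, minus strand, at 6706891 to 6733430 (ENSMUSG00000002265). Its control values were 0.305, 0.788 and 0.770 FPKM and its calcification values 0.525, 0.538 and 0.512 FPKM. Vector values were 0.173, 0.223 and 0.362 FPKM, and values in the libraries labelled Klotho 0.554, 0.336 and 0.316 FPKM. All 3 vector libraries lay below all 3 calcification libraries, the only pair of groups without overlap for any member in the 4 comparisons, where 2.25% to 6.63% of all genes had none in a given comparison and direction. The vector libraries held 40, 52 and 85 fragments of Peg3 and the calcification libraries 133, 119 and 118.

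Plagl1 lies on chromosome 10, plus strand, at 12936248 to 13007438 (ENSMUSG00000019817) and had the lowest mean of the 9 genes. Control libraries held 0.0897, 0.760 and 0.0596 FPKM, from 12, 103 and 8 fragments. The 3 other groups held between 0.00735 FPKM, a single fragment in vector replicate 1, and 0.246 FPKM in calcification replicate 2. Control replicate 2 stood far above the other 11 libraries, and replicate 2 was the highest library of every group. The control mean of 0.303 ± 0.396 FPKM (SD, n = 3) rests on that library, which had the fewest genes above 0.

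Mest, a paternally expressed gene for a protein of the alpha/beta hydrolase fold family that is linked to tissue growth, lies on chromosome 6, plus strand, at 30723546 to 30748464 (ENSMUSG00000051855). It overlaps Copg2 on the opposite strand, and no source used here gives the strand setting of the counting, so reads of the pair cannot be told apart with certainty. Mest values ran from 0.0729 FPKM in vector replicate 1, from 5 fragments, to 0.762 FPKM in calcification replicate 2, from 50 fragments. Group means were 0.309 ± 0.102 FPKM in control, 0.438 ± 0.286 in calcification, 0.212 ± 0.122 in vector and 0.314 ± 0.0807 in the libraries labelled Klotho (SD, n = 3), and every pair of groups compared overlapped.

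Ndn encodes necdin, a protein of the MAGE family that restrains cell division and is paternally expressed from the region linked to Prader-Willi syndrome in humans. It lies on chromosome 7, plus strand, at 61996317 to 62000010 (ENSMUSG00000033585). Control libraries held 47.2, 61.2 and 53.6 FPKM, calcification libraries 31.1, 43.4 and 51.6, vector libraries 47.8, 60.5 and 47.2, and libraries labelled Klotho 30.8, 56.3 and 56.2. The lowest libraries were replicate 1 of the calcification and Klotho groups, and the groups overlapped.

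Grb10 encodes an adaptor that binds the insulin and IGF1 receptors and restrains growth in mice. It lies on chromosome 11, minus strand, at 11880508 to 11988683 (ENSMUSG00000020176). Control libraries held 21.7, 33.1 and 34.7 FPKM and calcification libraries 17.0, 26.5 and 27.5. Vector libraries held 15.2, 21.4 and 26.4 FPKM and libraries labelled Klotho 19.6, 28.5 and 29.1. Each calcification library lay below its same-numbered control, and each library labelled Klotho above its same-numbered vector library, while the groups as wholes overlapped. How many of all genes share such directions was not counted. The Klotho and vector libraries were not taken as paired.

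**Figure D2:**
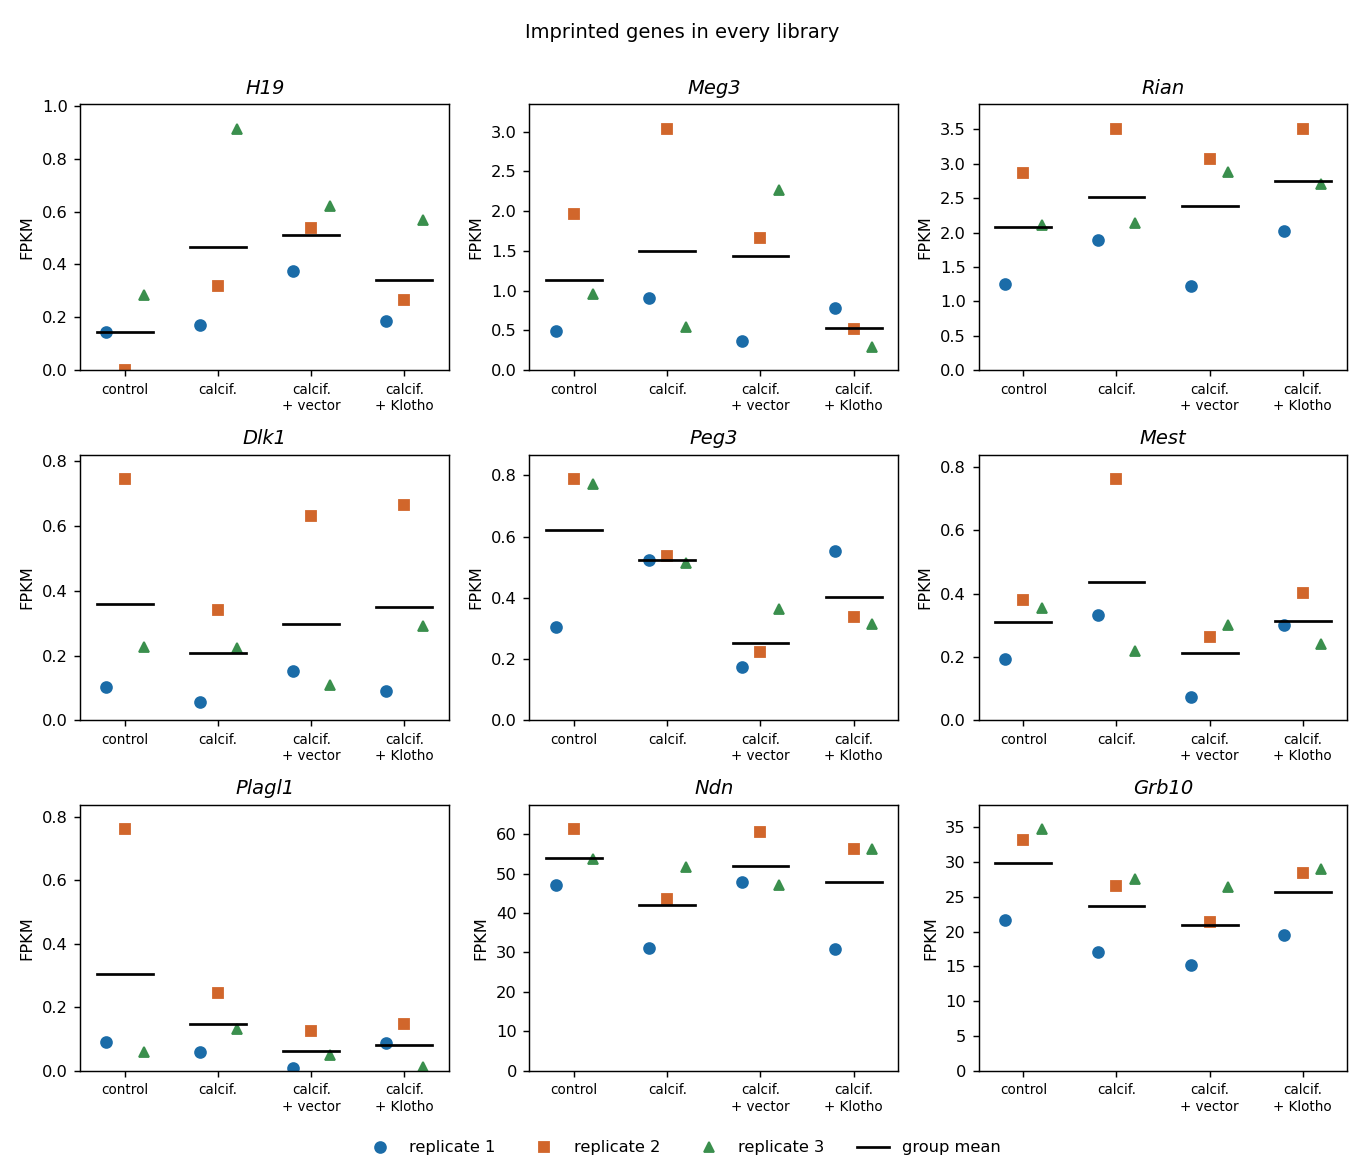
FPKM of each of the 9 genes in every library, by group, with 1 marker per library (circle replicate 1, square replicate 2, triangle replicate 3) and a line at the mean of the 3. Each vertical axis starts at 0 and has its own scale. Among the pairs of groups compared, Peg3 between calcification (0.512 to 0.538) and vector (0.173 to 0.362) is the one without overlap. H19 in vector (0.374 to 0.622) also lies above control (0 to 0.284), a pair not compared. The share of all genes without overlap in that pair was not counted. H19 had 0 to 12 fragments in the control libraries and 16 to 27 in the vector libraries.

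The first comparison set calcification medium against basal medium. None of the 4 members tested was called in limma at an adjusted p under 0.05, where 76 of 10758 genes, 0.706%, were. At an unadjusted p under 0.05 the members called were 0 of 4, against 1239 of all genes (11.5%), and limma-voom on recovered fragments also called 0 of the 4. On the log2(FPKM + 1) scale the difference between calcification and control was -0.32 ± 0.26 (SE, adjusted p = 0.694) for Grb10 and -0.38 ± 0.24 (adjusted p = 0.610) for Ndn. Without calcification replicate 1 the Grb10 difference was -0.11, and without control replicate 1 it was -0.53. For Meg3 it was 0.15 ± 0.39 (adjusted p = 0.920) and for Rian 0.20 ± 0.28 (adjusted p = 0.832).

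Grb10 had the most even difference of these 4 between same-numbered libraries. It was -0.33 for replicate 1, -0.31 for replicate 2 and -0.32 for replicate 3. With the replicate number as a block, its SE was 0.0944 and its unadjusted p was 0.00612, but its adjusted p of 0.0965 missed the threshold that 3.91% of genes passed. The block fit covers all 12 libraries, and its SE draws also on the vector libraries, which the pairing check did not take as paired. Ndn differed by -0.59, -0.49 and -0.06. H19, below the filter, differed by 0.04, 0.40 and 0.58, and in limma without the filter its difference of 0.34 ± 0.18 had an adjusted p of 0.743, where 0.144% of genes were called.

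The second comparison set the libraries labelled Klotho against the empty lentivirus. None of the 4 members was called, as was no gene of the 10758 (0%), and none of the 4 had an unadjusted p under 0.05, where 1514 of all genes (14.1%) did. limma-voom on recovered fragments also made 0 calls. The difference was -0.59 ± 0.39 for Meg3 (SE, adjusted p = 0.506), 0.29 ± 0.26 for Grb10 (adjusted p = 0.624), 0.17 ± 0.28 for Rian (adjusted p = 0.799) and -0.16 ± 0.24 for Ndn (adjusted p = 0.794). The Meg3 difference was -1.05 with a pseudocount of 0.1, -1.20 in limma-voom and -1.07 without replicate 1 of every group. It was -0.95 without vector replicate 1 and -0.33 without vector replicate 3, with an adjusted p of 0.277 to 0.746 over all alternatives. Within numbers Meg3 differed by 0.39, -0.81 and -1.34, so its same-numbered libraries did not share a direction. Grb10 differed by 0.34, 0.40 and 0.13. With the block 0.102% of genes were called, and Grb10 was not (adjusted p = 0.148).

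The other comparisons, vector against calcification and Klotho against calcification, share the calcification libraries with each other and with the first. Neither called a member or any other gene (0%), with 1520 (14.1%) and 337 (3.13%) genes at an unadjusted p under 0.05, 0 of the 4 members among them, and 0 calls in limma-voom. Between vector and calcification Meg3 differed by 0.00 ± 0.39 (SE, adjusted p = 0.999), with same-numbered differences of -0.48, -0.60 and 1.09. Ndn differed by 0.32 (adjusted p = 0.531), Grb10 by -0.17 (adjusted p = 0.767) and Rian by -0.07 (adjusted p = 0.913). Peg3 was lower in vector than in calcification by -0.38, -0.33 and -0.15 within numbers. In limma without the filter its difference was -0.29 ± 0.13, with an unadjusted p of 0.0475 and an adjusted p of 0.619, where 0.00388% of genes were called. Its non-overlap was shared by 6.63% of all genes in that direction. Between the libraries labelled Klotho and calcification Meg3 differed by -0.58, Ndn by 0.16, Grb10 by 0.12 and Rian by 0.10, each with an adjusted p of 1.00.

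**Figure D3:**
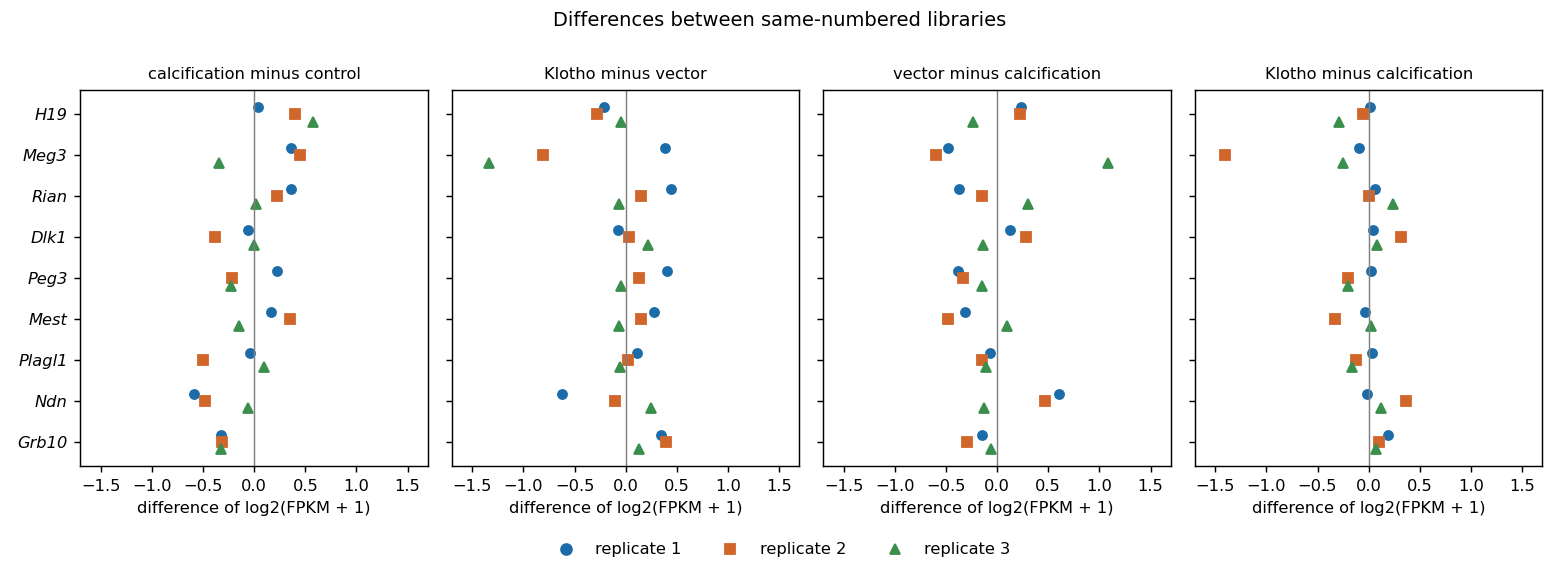
Difference of log2(FPKM + 1) between same-numbered libraries for the 9 genes in the 4 comparisons, with 1 marker per replicate number and a grey line at 0. The 3 markers of Grb10 in calcification minus control lie together (-0.33, -0.31, -0.32), while those of Meg3 spread from -0.60 to 1.09 in vector minus calcification.

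The replicate number, which the labels give as 1 to 3 in every group without saying what it marks, was the factor for which members were called. The moderated F test in limma, with group in the fit, called Rian (adjusted p = 0.00682) and Grb10 (adjusted p = 0.000830), so 2 of the 4 tested, where 1335 of 10758 genes, 12.4%, were called. Rian was higher in replicate 2 than in replicate 1 by 0.72 ± 0.12 and in replicate 3 by 0.42 ± 0.12 on the log2(FPKM + 1) scale (SE). Grb10 was higher by 0.55 ± 0.08 and 0.65 ± 0.08. Ndn (adjusted p = 0.0600) and Meg3 (adjusted p = 0.254) were not called.

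The median Rian level over the 4 groups was 1.58 FPKM in replicate 1, 3.29 in replicate 2 and 2.43 in replicate 3. For Grb10 the medians were 18.3, 27.5 and 28.3 FPKM. Both genes were lowest in replicate 1 in 4 of 4 groups, a pattern of 7.28% of the genes tested. Grb10 was highest in replicate 3 in the control, calcification, vector and Klotho groups alike, a pattern of 3.4% of the genes tested.

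Of the 5 members below the filter, 1 was called for the number without it. Dlk1 had medians of 0.0968, 0.647 and 0.225 FPKM and was called in limma without the filter (adjusted p = 0.0179), where 3.64% of genes were called. Dlk1 and Plagl1 were highest in replicate 2 in 4 of 4 groups, as was Mirg, against 2.85% of all genes in the table. Rian was too, against 5.27% of the genes tested. In the cluster of Dlk1 and Rian, Rtl1 was highest in replicate 2 in 3 of 4 groups, Meg3 in 2 and Dio3 in 0. H19 was highest in replicate 3 in 4 of 4 groups, with medians of 0.178, 0.292 and 0.596 FPKM, a pattern of 2.2% of all genes, and was not called without the filter (adjusted p = 0.123). Of the others, Plagl1 (adjusted p = 0.288), Mest (0.415) and Peg3 (0.828) were not called in that fit.

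Markers of the cell type moved with the number too. All 10 smooth muscle genes were called for replicate number, against 12.4% of all genes. Acta2, smooth muscle actin, was at 178, 763 and 952 FPKM in the 3 control libraries, 128, 580 and 923 in calcification, 245, 625 and 744 in vector and 138, 696 and 1081 in the libraries labelled Klotho. Summed macrophage markers were highest in replicate 1, at 78.3 to 117 FPKM, against 28.1 to 55.1 in replicate 2 and 31.1 to 35.6 in replicate 3. Lyz2, at a mean of 37.3 FPKM, made up most of that sum. Of the 4 tested markers 3 were called, in an F test that gives no direction, and Csf1r was not (adjusted p = 0.545). Summed endothelial markers were at 1.36 to 1.99, 2.47 to 6.55 and 6.67 to 9.80 FPKM, with 2 of 2 called. Adventitial fibroblast markers spanned 884 to 1800, 694 to 1277 and 818 to 1216 FPKM, with 3 of 6 called. The part of cell makeup in the levels of Rian, Grb10 and Dlk1 was not tested, and fewer cells of a type and less RNA per cell cannot be told apart in bulk samples.

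**Figure D4:**
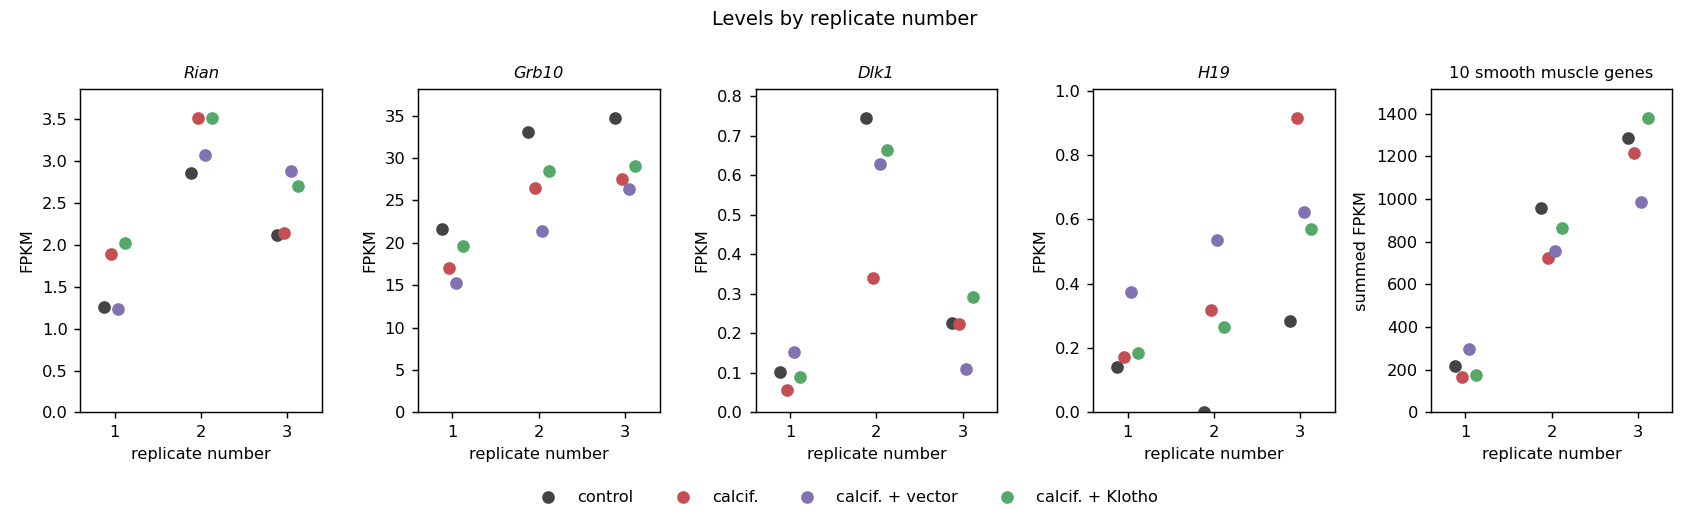
FPKM of Rian, Grb10, Dlk1 and H19 and the summed FPKM of 10 smooth muscle genes, by replicate number, with 1 point per library coloured by group and every vertical axis starting at 0. Rian and Grb10 are lowest at number 1 in each group, Dlk1 is highest at number 2 and H19 at number 3, and the smooth muscle sum runs from 167 to 298 at number 1 to 986 to 1379 at number 3.

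Imprinted neighbours of the members, the cluster genes around them, gave no call in any of the 4 comparisons, and 7 of the 21 in the table were tested. At an unadjusted p under 0.05 in limma there were 2 of the 7 between calcification and control, Cdkn1c and Copg2, against 11.5% of all genes, 1 between vector and calcification, against 14.1%, and 0 in the other comparisons, and limma-voom called 0. Their median difference between calcification and control was -0.02, against 0.04 over all genes tested. With the replicate number as a block in that comparison, 1 of the 7 was called, against 3.91% of all genes. It was Cdkn1c, the maternally expressed cell cycle inhibitor p57. Its control values were 12.2, 22.3 and 13.7 FPKM and its calcification values 27.1, 51.1 and 31.0 FPKM. Each calcification library exceeded every control library, as for 5.89% of all 25745 genes in the table, tested or not, in that direction. The share among the genes tested was not counted. The difference was 1.12 ± 0.32 (SE, adjusted p = 0.207) without the block and 1.12 ± 0.10 (adjusted p = 0.000501) with it, and the adjusted p over the alternatives ran from 0.000501 to 0.470. Cdkn1c also stood at 28.6, 54.6 and 34.6 FPKM in vector and 28.9, 55.5 and 41.7 FPKM in the libraries labelled Klotho, so all 9 libraries in calcification medium lay above the 3 controls. The share of all genes with that pattern was not counted. Like Rian, Cdkn1c was lowest in replicate 1 and highest in replicate 2 in 4 of 4 groups. Among the genes tested, 7.28% were lowest in replicate 1 in all 4 groups and 5.27% were highest in replicate 2.

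Among markers of other cells, Msln and Col14a1 were called between the same groups. Of 3 mesothelial markers tested, 1 was called, against 0.706% of all genes. It was Msln, which rose from a mean of 5.28 FPKM in control to 57.7 in calcification (adjusted p = 0.0457). In limma-voom 0 of the 3 were called. Upk3b was at 4.89 and 3.65 FPKM (adjusted p = 0.813) and Krt19 at 1.39 and 1.68 FPKM (adjusted p = 0.775). The summed mesothelial markers, at 5.82 to 19.3 FPKM in control and 33.4 to 115 FPKM in calcification, therefore consisted mostly of Msln in calcification. Col14a1, the 1 called of 6 adventitial fibroblast markers tested, fell from 56.0 to 16.3 FPKM (adjusted p = 0.0421). In limma-voom 1 of the 6 was called. Of the 6, 2 had a positive difference, and the median difference of the 6 was -0.52, against 0.04 over all genes tested. The sum of the list was at 694 to 884 and 796 to 1430 FPKM. It consisted mostly of Ly6a, at a mean of 547 FPKM in control and 891 FPKM in calcification. Summed smooth muscle genes overlapped, at 220 to 1284 FPKM in control and 167 to 1216 FPKM in calcification. With the replicate number as a block, limma called 1 of the 10 smooth muscle genes, against 3.91% of all genes. It was Des, at a mean of 1.17 FPKM in control and 4.09 in calcification (adjusted p = 0.00117, against 0.292 without). The block also called Ly6a (adjusted p = 0.0388, against 0.360 without), besides Msln (8.71e-06) and Col14a1 (0.00479). The part of these markers in the values of Cdkn1c or of the members was not tested.

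Imprinted genes elsewhere in the genome, such as the receptor gene Igf2r and the signalling gene Gnas, gave 0 calls among 15 tested in each of the 4 comparisons, with or without the block. 1 of the 15 had an unadjusted p under 0.05 in limma in each of the first 3 comparisons, against 11.5% to 14.1% of all genes, and 0 in the last, and limma-voom called 0. Their median difference between calcification and control was -0.11. For replicate number 3 of the 15 were called, Dcn (adjusted p = 1.94e-05), Gnas (0.0270) and Qpct (0.0440), and 4 of the 7 tested neighbours were, Cdkn1c (0.000247), Tnfrsf23 (0.00154), Cobl (0.00206) and Snrpn (0.00682), against 12.4% of all genes.

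The list of insulin-like growth factor partners and other pathway genes gave no call among 18 tested in any comparison without the block, by limma or limma-voom. In limma 2 of the 18 had an unadjusted p under 0.05 between calcification and control, against 11.5% of all genes. The count was 1 between Klotho and vector and 4 between vector and calcification, each against 14.1%, and 0 between Klotho and calcification, against 3.13%. Their median difference between calcification and control was 0.10. With the block 1 of the 18, against 3.91% of all genes, was called in that comparison. Igfbp6, a secreted IGF-binding protein, differed by 0.75 ± 0.18 (SE, adjusted p = 0.0424, against 0.685 without). Its values were 160, 413 and 214 FPKM in control and 218, 758 and 412 in calcification. 7 of the 18 were called for replicate number, against 12.4% of all genes, led by Igfbp2 (adjusted p = 8.36e-06) and the Notch target Hes1 (adjusted p = 7.76e-05).

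Genes that keep imprints, such as DNA methyltransferases and their partners, gave 0 calls among 5 tested in each comparison and 0 for replicate number, with a median difference of 0.21 between calcification and control. 2 of the 5 had an unadjusted p under 0.05 in limma there, against 11.5% of all genes, 1 between vector and calcification, against 14.1%, and 0 in the other comparisons, and limma-voom called 0. With the block 1 was called in that comparison, against 3.91% of all genes, Uhrf1, which recruits the maintenance methyltransferase to replicated DNA. It was at 3.21, 2.60 and 3.60 FPKM in control and 4.02, 6.21 and 6.90 FPKM in calcification, without overlap. That held for 5.89% of all 25745 genes in the table, tested or not, in that direction. The difference was 0.68 ± 0.14 (SE) with the block (adjusted p = 0.0217) and 0.68 ± 0.19 without it (adjusted p = 0.181).

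The genes whose levels ran most like each tested member were named by Pearson's r of log2(FPKM + 1) over the 12 libraries, as a description. Libraries share group and replicate number, so the points are not independent. For Rian they were Exosc9 (0.965), E2f6 (0.959) and Adcyap1r1 (0.951), and for Grb10 Ddah1 (0.964), Fgf2 (0.963) and Plekhg2 (0.958). For Ndn they were 2010001A14Rik (0.968), Myl12a (0.960) and Gnai2 (0.949), and for Meg3 Taok2 (0.916), Otud1 (0.901) and Col4a1 (0.887). No member was among the 3 nearest genes of another. Between members r was 0.606 for Ndn and Grb10, 0.586 for Rian and Grb10 and 0.582 for the cluster neighbours Meg3 and Rian, and 0.0277 for Meg3 and Ndn.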

How the data were processed

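RNA-seq of 12 libraries was analysed from 1 table of values per gene deposited by the authors. Its header names no unit. The deposited values behave as FPKM, judged from the values: multiplied by the GENCODE M21 exon length, which 99.2% of 25745 genes have, 98.07% to 98.35% of values under 100 fragments were whole to 0.05 of a fragment, against 10% by chance. Tools named by the submitters' processing notes, with no order or role, are STAR 2.4, DESeq2 3.12 and CASAVA 1.8.2, and the builds named are GRCm38 and GRCm39. Neither the build of the table nor its strand setting is given in the sources used here, and coordinates are those of the table unless credited to RefSeq. Table positions equalled those of GENCODE M21 for 561 of 25745 genes, so table and RefSeq coordinates cannot be compared.

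From these values, limma 3.58.1 (R 4.3.3) with a mean-variance trend was run on log2(FPKM + 1) for the 10758 genes that averaged 1 FPKM or more, in 1 fit of 12 libraries with a coefficient per group. Benjamini-Hochberg adjustment covered all genes tested, and a gene was called under 0.05. This scale understates the change of low genes. Replicate number was tested by a moderated F test with group in the fit. The scripts were tested on simulated data. The genes named are the 9 members, the 3 genes most like each tested member, and up to 4 called genes per fixed list and comparison with the smallest adjusted p, besides label checks. Cluster neighbours with low values, and Igfbp6 and Uhrf1, called only with the block, were named after their values were seen, as were Cdkn1c, Ly6a, Des, Lyz2 and Csf1r. The members and lists were chosen with earlier results of these data known. Motifs were read on both strands.

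Alternatives were a pseudocount of 0.1, no filter, FPKM of at least 1 in 3 libraries, upper-quartile scaling, limma-voom on recovered fragments, removal of a GC and length trend, the replicate number as a block with and without that removal, the 6 libraries of a comparison alone, replicates 2 and 3 alone, and leaving out each library. Deviations of same-numbered libraries from their group means had r of 0.427, 0.509 and 0.199 between calcification and control and 0.731, 0.573 and 0.673 between Klotho and calcification, so these were taken as paired from the data. Between Klotho and vector r was 0.294, 0.522 and 0.00556 and between vector and calcification 0.314, 0.497 and -0.0635, so these were not. The block was fitted over all 12 libraries, so every SE and call with the block also draws on the vector libraries.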

Additional observations from a re-analysis of the deposited data

How the results depend on the processing

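No member was called in any of the 4 treatment comparisons under any alternative run. H19, Dlk1, Peg3, Mest and Plagl1 were tested only in the fit without the filter, and the other settings cover Meg3, Rian, Ndn and Grb10. Replicate number was tested in 19 settings, the reported one included, and not with the block, in 6 libraries or in replicates 2 and 3 alone. Rian and Grb10 were called in all 19, with adjusted p of 0.00114 to 0.0428 and 0.000322 to 0.00587. Ndn was called for replicate number with upper-quartile scaling (adjusted p = 0.0440), in limma-voom (0.0491) and without vector replicate 1 (0.0343) or vector replicate 3 (0.0262). Low values limit H19, Dlk1, Mest and Plagl1, which had 0 to 103 fragments per library. Over all genes, the count between calcification and control was 76, against 421 with the replicate block, 564 with the block and the GC and length trend removed, 37 without the filter, 3 in its 6 libraries alone and 15 to 61 without 1 library. Between Klotho and vector it was 0, against 11 with the block and 2 without the filter. The replicate block called no member, and its calls in the fixed lists are given with those lists.

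Differences that changed sign, none of them called, and whose cause was not tested, were as follows on the log2 scale. Between calcification and control, leaving out 1 library gave -0.26 to 0.44 for Meg3 and -0.00773 to 0.38 for Rian. Between Klotho and vector, Rian was -0.33 with the GC and length trend removed, with or without the block, and -0.10 to 0.33 without 1 library, the lowest without vector replicate 1. Ndn there was 0.0739 without replicate 1 of every group and -0.30 to 0.13 without 1 library, the highest without Klotho replicate 1. Between vector and calcification, Meg3 was -0.0167 with pseudocount 0.1, -0.0230 with upper-quartile scaling and -0.28 to 0.41 without 1 library. Rian there was 0.35 with the trend removed, with or without the block, 0.0771 without replicate 1 of every group, and -0.23 to 0.20 without 1 library. Grb10 there was 0.0452 with the trend removed, with or without the block, and -0.38 to 0.0347 without 1 library. Between Klotho and calcification, leaving out 1 library gave -0.0435 to 0.29 for Rian, -0.0381 to 0.44 for Ndn and -0.0899 to 0.30 for Grb10.

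Differences that kept their sign in every setting run, none of them called, still varied in size. The range was -0.54 to -0.18 for Ndn and -0.53 to -0.11 for Grb10 between calcification and control, and 0.0870 to 0.47 for Grb10 and -1.20 to -0.33 for Meg3 between Klotho and vector. It was 0.12 to 0.48 for Ndn between vector and calcification and -1.18 to -0.17 for Meg3 between Klotho and calcification.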
